A study of Homo sapiens with 148 samples.

Results

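Imprinted genes are expressed from only the maternal or only the paternal copy, a choice set by DNA methylation placed in the germ line at imprinting control regions. Many of them regulate growth before birth, and several act in the pancreas: IGF2 is a growth factor, PLAGL1 is the gene overexpressed in transient neonatal diabetes, and DLK1 and MEG3 share a control region at a locus linked to type 1 diabetes. The 10 imprinted genes described here are H19, IGF2, CDKN1C, DLK1, MEG3, PLAGL1, PEG3, PEG10, MEST and NNAT. They were chosen by name, with earlier results of these data known, and are 10 of the 49085 gene names in the table of mean transcript levels. Each has a single entry in that table, and 9 of them reached 1 TPM (reads divided by transcript length and scaled to the same total in every stage) in at least 1 stage.

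The RNA came from H9 cells, an established line of human embryonic stem cells (hESCs) of wild-type genotype, and from spheroids and organoids that were differentiated from it. The stages were undifferentiated hESCs, definitive endoderm (DE) at day 4, primitive gut tube (PGT) at day 7, pancreatic progenitors (PP) at day 14, a stage named PH for which no definition or day is given in the sources used here, and stem cell-derived β cell (SC-β) organoids at day 35. All stages derive from this 1 line. In the paper's differentiation schedule, Activin A, CHIR99021 and Y27632 began on day 1 and KGF on day 4. Sant1, RA, LDN193189 and PdBU began on day 7, and XXI, Betacellulin, Alk5i II and T3 on day 14. The schedule names no step for PH. Stages are given below in the deposited order, which does not place PH in time. The labels list 2 RNA-seq libraries per stage, 12 of the 148 samples of the study, and the other assays are not analysed here. The deposited table holds only the authors' mean of the 2 libraries, so no value below has an error or a test, and the order of neighbouring stages could not be set against a spread. The paper's reporting summary gives only a minimum depth for the RNA-seq replicates, and the number of reads behind a value is unknown. Reads from the maternal and the paternal copy are not separated.

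The stages were checked against marker genes. The 5 pluripotency markers were POU5F1, NANOG, LIN28A, DPPA4 and TDGF1. They summed to 2740 TPM in hESCs, 1618 TPM in DE, 601 TPM in PGT and 248 TPM in PP. Their sum was 22.5 TPM in PH and 40.4 TPM in SC-β organoids. Most of the sum in PGT and in PP was LIN28A, at 516 and 169 TPM. DPPA4 was at 53.8 and 77.2 TPM there, and TDGF1 at 5.61 and 0.545 TPM. POU5F1 was at 1449 TPM in hESCs, 25.4 TPM in PGT and 0.543 TPM in PP. NANOG was at 44.6, 0.293 and 0.0352 TPM in the same stages. The 4 endoderm markers (SOX17, FOXA2, CXCR4 and CER1) summed to 281 TPM in hESCs, 1969 TPM in DE and 120 TPM in PGT. In PP, PH and SC-β they summed to 38.8, 108 and 29.5 TPM, with SOX17 listed at 0 in PH. Nearly all of the sum in PH was CXCR4, at 106 TPM against 23.0 TPM in PP. The other endoderm markers were lower in PH than in PP, with FOXA2 at 1.17 against 13.2 TPM. The 6 endocrine markers summed to 12.2 to 264 TPM in the other 5 stages and 3967 TPM in SC-β organoids, where the level of GCG (glucagon, 2793 TPM) was above that of INS (insulin, 298 TPM). All 8 mesenchymal markers, among them COL1A2 and COL3A1, reached 1 TPM in PP, PH and SC-β, and summed to 170, 1000 and 1950 TPM there against 63.7 to 90.9 TPM in the first 3 stages. All 7 neural markers reached 1 TPM in PH and in SC-β, and they summed to 1266 TPM in PH against 94.9 to 272 TPM elsewhere. The 6 liver and yolk sac markers were highest in PGT at a sum of 606 TPM, against 4.77 to 250 TPM elsewhere, and APOA2 was listed at 0 in PH. Of these markers, INS, GCG and NEUROD1 had 0 TPM in the first 3 stages, and a 0 was also listed for FGB in hESCs and DE, HES5 in DE and PGT, LUM in hESCs, DCN and SERPINA1 in DE, and STMN2 in PGT. In bulk RNA, fewer cells of a type and less RNA per cell cannot be told apart, and the part of these other cells in the levels below was not tested.

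H19 and IGF2 lie 124559 bp apart on the reverse strand of chromosome 11p15.5. The long noncoding RNA H19 (GENCODE version 44, chr11:1995166-2004552, GRCh38) is made from the maternal copy, and IGF2 (chr11:2129112-2158391), which encodes insulin-like growth factor 2, from the paternal copy. The control region between them binds the insulator protein CTCF on the unmethylated maternal copy. The CTCF-type sequence there was searched as the letters CGNGGNGGC followed directly by AG, on both strands, in the 6000 bases upstream (chr11:1997843-2003842) of the H19 transcript model that starts at base 1997842. It was found 6 times, each time on the reverse strand, the strand of H19. In adjoining windows of 6000 bases along chromosome 11, 6.96% of 22406 windows held at least 1 match. Only 1 window held 6, and it is the window that contains these same 6 matches. The 6 matches are shown because they are the sequence feature for which this locus is known. They are numbered outward from the transcript start and written 5′ to 3′ on the reverse strand, with the match in capitals.
site 1, chr11:1999960-1999986: agtggccgCGCGGCGGCAGtgcaggct
site 2, chr11:2000366-2000392: ggtggctgCGCGGCGGCAGtgcaggct
site 3, chr11:2000772-2000798: agtggccgCGTGGCGGCAGtgcaggct
site 4, chr11:2002205-2002231: agtggccgCGCGGCGGCAGtgcaggct
site 5, chr11:2002606-2002632: agtggccgCGCGGCGGCAGtgcaggct
site 6, chr11:2003011-2003037: agtggccgCGCGGCGGCAGtgcaggct
The 6 sites hold 3 distinct sequences of 27 bases, and 4 sites (1, 4, 5 and 6) are identical over that length. Without the flanks of 8 bases, the nearest base of each match lies 2126, 2532, 2938, 4371, 4772 and 5177 bases upstream of the transcript start. The H19 gene span of GENCODE version 44 runs over all of them. A match is a run of letters in the reference genome, and neither CTCF binding nor methylation was analysed here.

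H19 spanned the widest range of TPM of the 10 genes. It was listed at 0 in hESCs and stood at 1.01 TPM in DE, 63.4 TPM in PGT, 790 TPM in PP, 98.6 TPM in PH and 987 TPM in SC-β organoids. It ranked 1610th of 49085 names in PGT, 92nd in PP and 62nd in SC-β. The level in PGT was 62.9 times that in DE, the level in PP was 12.4 times that in PGT, and the level in PH was 0.125 times that in PP. PP and SC-β differed by 1.25-fold. No fold is given against hESCs, where the gene is listed at 0.

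IGF2 followed the same order of stages at a far lower level. Its means were 0.206 TPM in hESCs, 0.630 TPM in DE, 2.73 TPM in PGT, 21.2 TPM in PP, 5.17 TPM in PH and 28.6 TPM in SC-β. The order of both genes was SC-β, PP, PH, PGT, DE and hESCs from highest to lowest, and Pearson's r between their log2(TPM + 1) values was 0.97 over the 6 stage means, which share one table and its scaling. IGF2 was at 0.206 TPM in hESCs while H19 was listed at 0. H19 was 1.60 times as abundant as IGF2 in DE, 23.2 times in PGT, 37.3 times in PP, 19.1 times in PH and 34.4 times in SC-β. On the scale of the log2 ratio with 1 TPM added, IGF2 stood at 4.20 in PP and 4.62 in SC-β against hESCs. IGF2-AS, an antisense RNA that overlaps IGF2 by 8166 bp on the other strand, was at 4.36 TPM in PP, 0.961 TPM in PH and 4.95 TPM in SC-β, and at 0.0470 TPM or lower in hESCs, DE and PGT. The IGF2 region also holds INS-IGF2, a read-through gene on the same strand that never exceeded 0.161 TPM, and MIR483, which reached 1.12 TPM in SC-β. In PP, PH and SC-β, where H19 stood at 790, 98.6 and 987 TPM, the mesenchymal sum was 170, 1000 and 1950 TPM. The neural sum there was 172, 1266 and 194 TPM, and the endocrine sum 264, 145 and 3967 TPM. The liver and yolk sac sum was 130, 12.0 and 250 TPM, likewise lowest in PH of these stages.

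H19 is also the precursor of a microRNA, and MEST hosts another in an intron. Their mature sequences, taken from RefSeq (GRCh38.p14), are given with the seed, bases 2 to 8, in capitals, because the seed decides which transcripts a microRNA pairs with.
hsa-miR-675-5p: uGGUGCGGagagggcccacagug
hsa-miR-675-3p: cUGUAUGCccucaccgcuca
hsa-miR-335-5p: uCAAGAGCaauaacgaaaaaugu
hsa-miR-335-3p: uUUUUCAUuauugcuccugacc
The 4 mature forms have 4 different seeds. Those of miR-675 lie in an H19 exon at chr11:1996768-1996787 (3p) and chr11:1996800-1996822 (5p), and those of miR-335 in a MEST intron at chr7:130496126-130496148 (5p) and chr7:130496162-130496183 (3p). The row named MIR675 stayed at or under 1.1e-05 TPM in every stage while H19 reached 987 TPM, and MIR335 has no row. Libraries of this kind do not capture mature microRNAs of about this length, so the levels of the 4 forms are not known from these data.

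**Figure D1:**
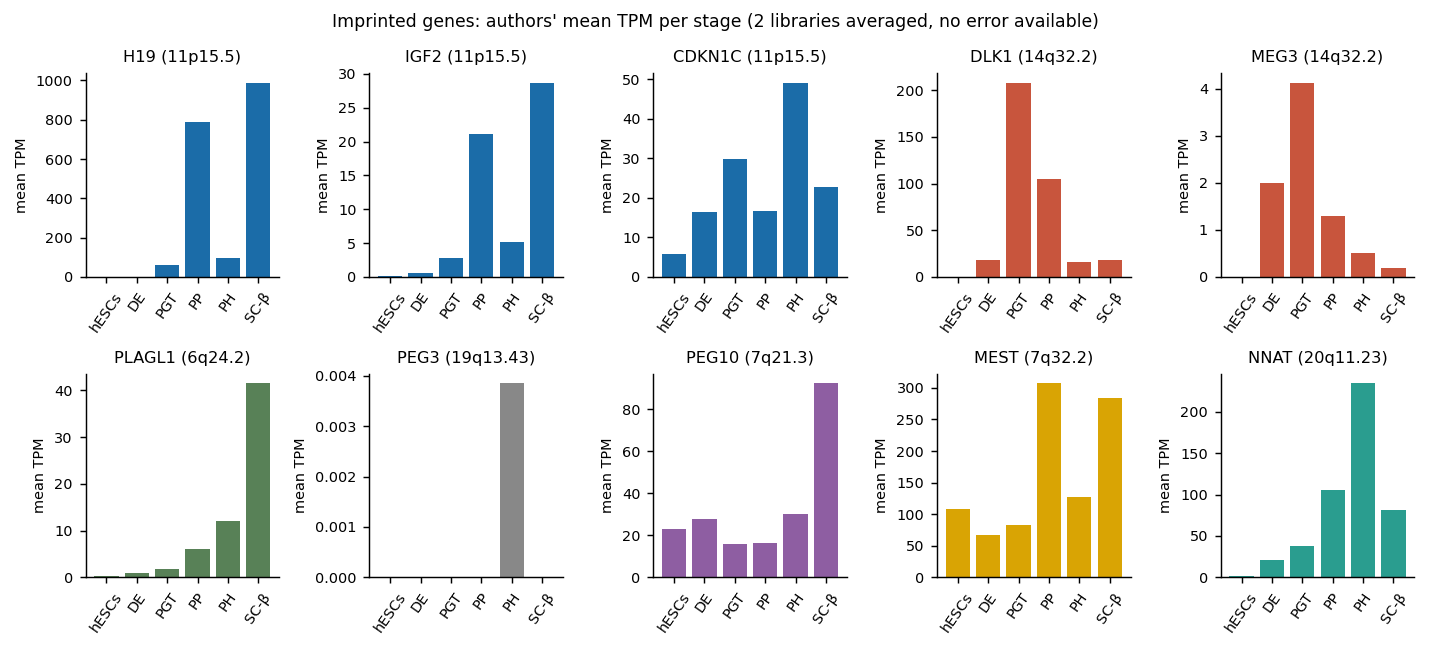
Mean TPM (vertical axis, linear, a separate scale for each gene) of the 10 imprinted genes at the 6 stages (horizontal axis); each bar is the authors' mean of 2 libraries, colours mark the locus and no error is available. H19 and IGF2 peak in PP and SC-β, DLK1 and MEG3 in PGT (208 and 4.12 TPM), NNAT and CDKN1C in PH (235 and 49.0 TPM), and PEG3 does not exceed 0.00385 TPM.

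CDKN1C lies in the second imprinted domain of 11p15.5 (chr11:2883213-2885775), 724821 bp from IGF2. It encodes p57, an inhibitor of cyclin-dependent kinases that stops the cell cycle, and is expressed from the maternal copy. Its means were 5.89 TPM in hESCs, 16.3 TPM in DE, 29.8 TPM in PGT, 16.6 TPM in PP, 49.0 TPM in PH and 22.7 TPM in SC-β. The highest stage, PH, was 1.65 times the second, PGT, and 2.95 times PP. KCNQ1OT1, the paternally expressed noncoding RNA of the same domain, was at 1.62 TPM in hESCs, 4.79 to 9.36 TPM from DE to PH, and 19.7 TPM in SC-β. CDKN1C was 5.24 times as abundant as KCNQ1OT1 in PH and 1.15 times in SC-β, the closest the 2 genes came. PHLDA2, a maternally expressed gene that restrains placental growth and lies 42497 bp from CDKN1C, had its highest level in hESCs at 3.38 TPM and was at 0.253 to 0.714 TPM from DE to PH and 1.24 TPM in SC-β. KCNQ1, a potassium channel gene, ranged from 0.410 to 1.92 TPM, and SLC22A18, a transporter gene, from 2.87 to 8.39 TPM, both highest in DE.

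DLK1 and MEG3 lie on the forward strand of chromosome 14q32.2, 41185 bp apart. DLK1 (chr14:100725705-100738224) encodes a membrane protein related to the Notch ligands and is expressed from the paternal copy. It stood at 0.373 TPM in hESCs, 18.7 TPM in DE, 208 TPM in PGT, 105 TPM in PP, 15.9 TPM in PH and 18.7 TPM in SC-β. It ranked 346th of all names in PGT, where it was 1.99 times the level in PP, 11.1 times that in DE and 556 times that in hESCs. The level in SC-β was 0.179 times that in PP. PGT was also the stage with the highest sum of liver and yolk sac markers (606 TPM).

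MEG3 (chr14:100779410-100861031) is a noncoding RNA made from the maternal copy. It was at 0.00973 TPM in hESCs, 2.00 TPM in DE, 4.12 TPM in PGT, 1.29 TPM in PP, 0.512 TPM in PH and 0.186 TPM in SC-β. Both genes were highest in PGT and lowest in hESCs, but at every stage the maternally expressed RNA was the less abundant of the pair, opposite to H19 and IGF2 from DE onward. The log2 ratio of MEG3 to DLK1, with 1 TPM added to each, was -2.71 in DE, -5.35 in PGT, -5.53 in PP, -3.48 in PH and -4.05 in SC-β. Of the other RNAs of the locus, MEG8, a maternally expressed noncoding RNA, had the same peak stage as MEG3 (2.82 TPM in PGT, 0.00202 TPM in hESCs and 0.227 TPM in SC-β). MEG9 reached 3.48 TPM in DE and stayed at or under 0.276 TPM in the other stages. RTL1, a paternally expressed retrotransposon-derived gene, was highest in PP at 2.97 TPM. DIO3, which inactivates thyroid hormone, was at 0.584 TPM in hESCs, 26.5 TPM in DE, 12.2 TPM in PGT, 2.02 TPM in PP, 0.289 TPM in PH and 10.6 TPM in SC-β, and its neighbour DIO3OS was listed at 0 in hESCs and ranged from 0.467 TPM in PH to 7.65 TPM in PGT. DIO3 and DIO3OS thus had a second high level in SC-β, where DLK1 stood at 18.7 TPM and MEG3 at 0.186 TPM.

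PLAGL1 (chr6:143940300-144064599, 6q24.2) encodes a zinc finger transcription factor that restrains proliferation and is expressed from the paternal copy. Its level was higher at each stage than at the one before it in the order of the table, with 0.245 TPM in hESCs, 0.851 TPM in DE, 1.69 TPM in PGT, 5.99 TPM in PP, 12.0 TPM in PH and 41.6 TPM in SC-β. The level in SC-β was 3.45 times that in PH and 6.94 times that in PP. HYMAI, a noncoding RNA that lies inside PLAGL1 on the same strand over 3347 bp, was at 0.0893 TPM or lower in hESCs, DE and PGT, at 0.666 TPM in PP, 1.28 TPM in PH and 6.39 TPM in SC-β. Reads in the shared stretch could be counted for either gene. The mesenchymal marker sum was likewise highest in SC-β and second in PH (1950 and 1000 TPM). The endocrine sum was also highest in SC-β (3967 TPM), and was 264 TPM in PP and 145 TPM in PH. The part of either cell type in the PLAGL1 level was not tested.

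PEG10 (chr7:94656325-94669695, 7q21.3) is a retrotransposon-derived gene with a role in the placenta, expressed from the paternal copy. It was at 22.9 TPM in hESCs, 27.6 TPM in DE, 15.8 TPM in PGT, 16.5 TPM in PP, 30.0 TPM in PH and 92.5 TPM in SC-β. SC-β was 3.09 times the second stage, PH, and 5.62 times PP, whereas the other 5 stages spanned 15.8 to 30.0 TPM. SGCE, which encodes a sarcoglycan and overlaps PEG10 head to head by 248 bp, had 14.3 TPM in hESCs and between 22.8 and 27.8 TPM in the other stages. PEG10 was thus at 0.569 times the SGCE level in PGT and 3.70 times that level in SC-β. PPP1R9A, the neighbouring gene for the actin-binding protein neurabin, ranged between 7.23 TPM (hESCs) and 19.3 TPM (DE).

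MEST (chr7:130486171-130506465, 7q32.2) encodes a hydrolase-like protein of mesodermal tissues and is expressed from the paternal copy. It was abundant in every stage, at 108 TPM in hESCs, 66.3 TPM in DE, 83.6 TPM in PGT, 307 TPM in PP, 127 TPM in PH and 284 TPM in SC-β. PP and SC-β differed by 1.08-fold, and PP was 3.68 times PGT. COPG2, a coat protein gene whose end overlaps that of MEST by 228 bp on the other strand, had its highest level in DE, where MEST was lowest, at 57.5 TPM against 25.0 to 44.2 TPM elsewhere. The ratio of MEST to COPG2 was 1.15 in DE, 6.99 in PP and 7.02 in SC-β. MESTIT1, antisense to MEST, ranged from 0.567 to 1.66 TPM. CPA4, a carboxypeptidase gene of the same cluster, was listed at 0 in hESCs, DE and PGT and reached 5.06 TPM in SC-β, and KLF14, a transcription factor gene, reached 1.09 TPM there.

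NNAT (chr20:37521206-37523690, 20q11.23) encodes neuronatin, a small membrane protein of brain and β cells, and is expressed from the paternal copy. It stood at 1.69 TPM in hESCs, 20.9 TPM in DE, 38.1 TPM in PGT, 105 TPM in PP, 235 TPM in PH and 81.8 TPM in SC-β. It ranked 196th of all names in PH, where it was 2.23 times the level in PP and where the sum of neural markers was also highest (1266 TPM against 172 TPM in PP). In SC-β the sum of endocrine markers was 3967 TPM against 145 TPM in PH. BLCAP, whose gene contains all 2485 bp of NNAT on the other strand, ranged only from 21.9 to 36.1 TPM. The ratio of NNAT to BLCAP ran 0.0655, 0.723, 1.74, 4.02, 6.74 and 2.27 in the order hESCs, DE, PGT, PP, PH and SC-β. The labels call the libraries strand-specific, and whether the counting used the strand is not given in the sources used here, so for IGF2, PEG10, MEST, NNAT and the others with an annotated gene on the opposite strand some reads of that gene could be included.

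PEG3 (chr19:56810077-56840728, 19q13.43), a zinc finger gene expressed from the paternal copy, was listed at 0 in hESCs, DE, PGT, PP and SC-β and at 0.00385 TPM in PH. The 3 listed neighbours, ZIM2, MIMT1 and PEG3-AS1, have no row. A listed 0 does not show that PEG3 RNA is absent, since the reads behind it are not known.

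**Figure D2:**
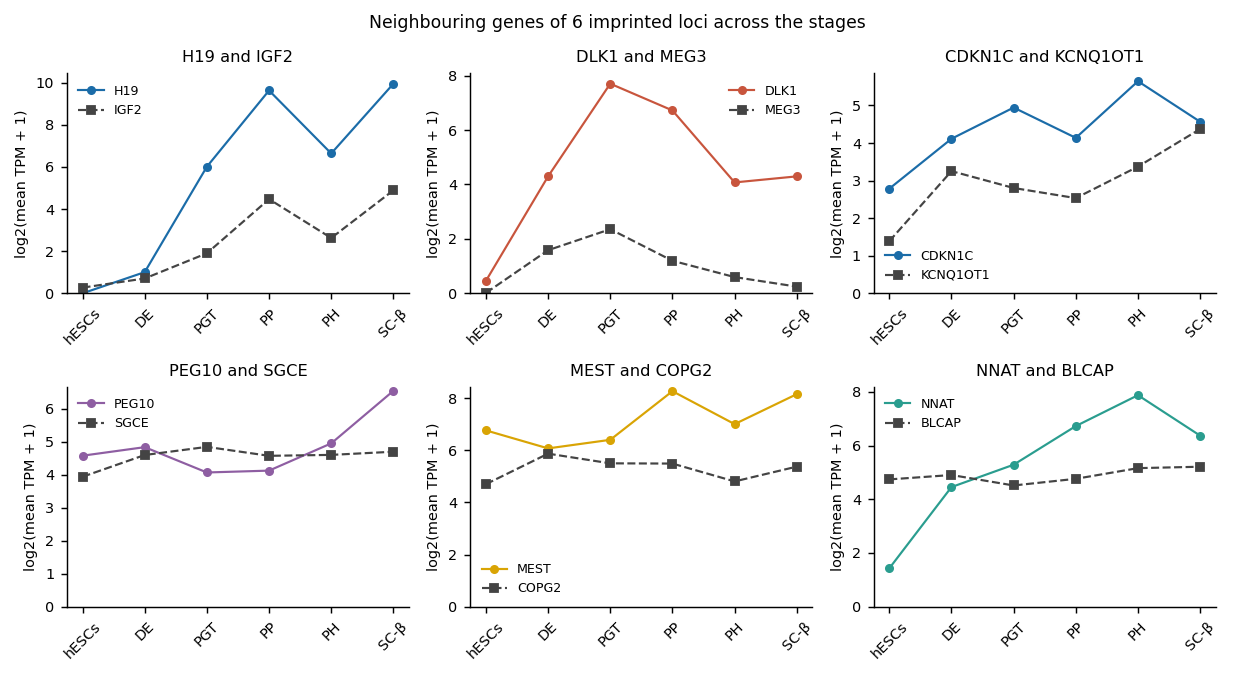
Level as log2(mean TPM + 1) (vertical axis) by stage (horizontal axis) of 6 pairs of neighbouring imprinted-locus genes; coloured circles are H19, DLK1, CDKN1C, PEG10, MEST and NNAT and dark squares their neighbours, each point 1 stage mean. H19 and IGF2 share their order of stages with H19 at 34.4 times IGF2 in SC-β, MEG3 stays under DLK1 throughout, and NNAT goes from 0.0655 to 6.74 times BLCAP.

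The 10 genes, chosen with earlier results of these data known, were then compared between stages. A name counted as higher or lower from 2-fold on the ratio of (TPM + 1), and the background was the same count over the 28202 names at 1 TPM or more in at least 1 stage. Against hESCs, 5 of the 10 were higher in DE (background 22.5%), 7 in PGT (background 17.6%), 8 in PP (background 13.9%), 6 in PH (background 21%) and 8 in SC-β (background 38.6%). These 5 comparisons share the hESC mean. None of the 10 was lower than in hESCs in any of them, where the background was 4.43%, 7.56%, 7.07%, 14.5% and 6.44% in the same order. With 1 TPM added, a gene under 1 TPM in the reference stage cannot be called lower in any comparison. In hESCs this held for H19, IGF2, DLK1, MEG3, PLAGL1 and PEG3, so only CDKN1C, PEG10, MEST and NNAT could have been lower. H19 is among the higher genes each time although it is listed at 0 in hESCs. CDKN1C, DLK1 and NNAT were also higher in all 5 stages, with log2 ratios of 1.33 to 2.86, 3.62 to 7.25 and 3.03 to 6.45. IGF2 and PLAGL1 were higher from PGT on. MEG3 was higher in DE, PGT and PP, MEST in PP and SC-β, and PEG10 in SC-β. With median-ratio scaling, H19 (0.91) and CDKN1C (0.90) fell under 2-fold in DE and MEST in SC-β (0.87), and MEST became lower in DE (-1.17). With 0.1 TPM added in place of 1 TPM, IGF2 and PLAGL1 also passed in DE, and MEG3 in PH and SC-β. The median log2 ratio of the 10 was 0.79, 1.89, 2.00, 2.61 and 2.90 in DE, PGT, PP, PH and SC-β, beside 0.44, 0.29, 0.24, 0.15 and 0.73 over the background.

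Among the other stages, 3 of the 10 (H19, IGF2 and DLK1) were higher in PGT than in DE (background 4%) and 0 lower (background 8.56%). From PGT to PP, 5 were higher (H19, IGF2, PLAGL1, MEST and NNAT; background 4.77%) and MEG3 lower (background 5.65%), with DLK1 just inside the threshold at a log2 ratio of -0.98. Between PP and PH, 2 were higher in PH (CDKN1C and NNAT; background 8.94%) and 4 lower (H19, IGF2, DLK1 and MEST; background 9.97%), at log2 ratios of 1.51 and 1.15 against -2.99, -1.84, -2.65 and -1.26. With the stages rescaled by median ratios, or without the most abundant names, PLAGL1 and PEG10 also passed and the count of higher genes became 4. Between PP and SC-β, PLAGL1 and PEG10 were higher in SC-β (log2 ratios of 2.61 and 2.42; background 18.5%) and DLK1 lower (log2 ratio of -2.42; background 1.63%). MEG3 lay at -0.95 in that comparison and passed the threshold, for 2 lower genes, under 3 of the alternatives. The medians of the 10 were 0.80, 0.72, -0.30 and 0.16 in these 4 comparisons, beside -0.14, -0.06, -0.09 and 0.39 over the background.

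The stage of the highest level was SC-β for H19, IGF2, PLAGL1 and PEG10, PH for CDKN1C and NNAT and for the trace of PEG3, PGT for DLK1 and MEG3, and PP for MEST. Over the background, 38.8% of names were highest in SC-β, 13.5% in PH, 9.94% in PGT and 4.66% in PP, and the 2 stages that were the highest for 0 of the 10 genes, hESCs and DE, held 12.5% and 20.6%. Between its lowest and highest stage, the log2 range with 1 TPM added was 7.25 for DLK1, 6.45 for NNAT, 5.10 for PLAGL1, 4.62 for IGF2, 2.86 for CDKN1C, 2.48 for PEG10, 2.34 for MEG3 and 2.2 for MEST. The place of MEG3 depends on the pseudocount, since its log2 ratio of PGT to hESCs was 5.27 with 0.1 TPM added. H19 is left out because it is listed at 0 in hESCs. The range of DLK1 was wider than that of 99.8% of background names, and that of MEST wider than that of 79.9%. A few structural RNAs took 31.8% to 50.9% of the TPM total, most in PH, and median-ratio factors shifted the stages by -0.27 (hESCs) to 0.25 (SC-β) on the log2 scale, with PH at -0.25. The count of the 10 genes that were highest in each stage was the same under both rescalings.

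**Figure D3:**
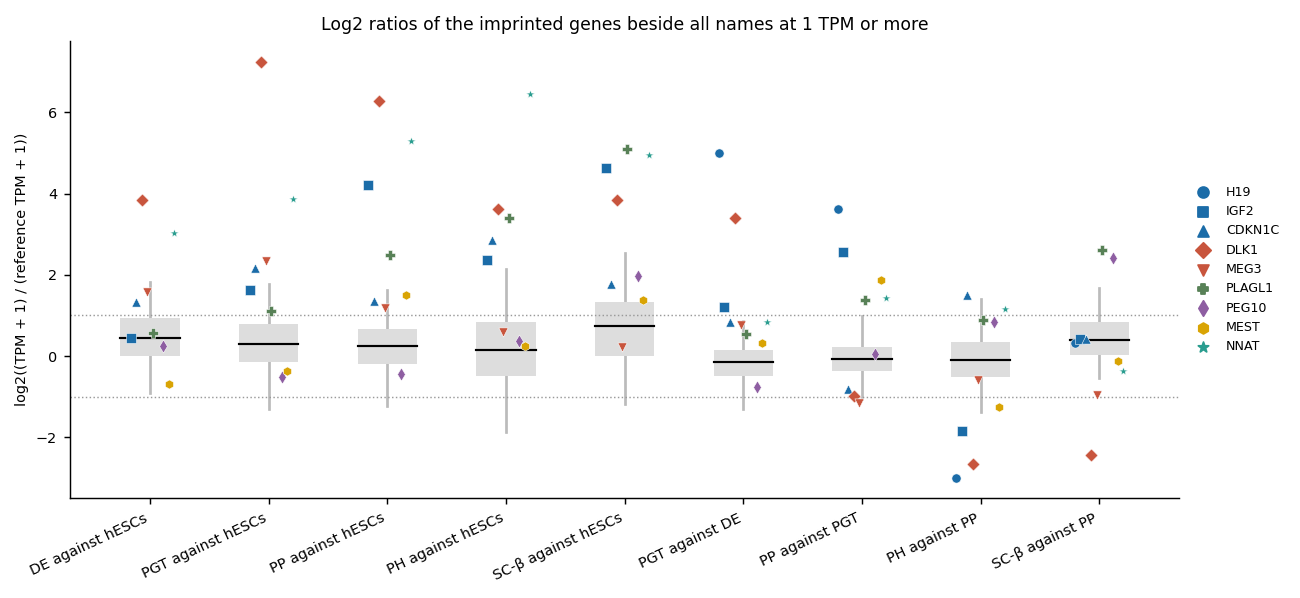
Log2 ratio of (TPM + 1) between 2 stages (vertical axis) for 9 comparisons (horizontal axis); grey boxes span the 25th to 75th percentile of the 28202 background names, thin grey lines the 5th to 95th percentile, black bars the median, dotted lines 2-fold, and coloured symbols the imprinted genes, leaving out genes listed at 0 in the reference. DLK1 stands highest in PGT against hESCs (7.25), and H19 lowest in PH against PP (-2.99).

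By profile over the 6 stages, names at 10 TPM or more were ranked by their root mean square distance from each gene in centred log2(TPM + 1). The nearest to H19 were MEIS1, a homeobox gene (distance 1.32, 0.325 TPM in hESCs and 229 TPM in SC-β) and SERPINA1 (1.64), larger distances than for the other genes. MEIS1 was higher in PH (161 TPM) than in PP (128 TPM), opposite to H19, whereas SERPINA1 was lower in PH (8.45 against 46.1 TPM). IGF2 was close to DLX5 (0.25) and WNT5A (0.34), a homeobox gene and a Wnt ligand, of which DLX5 was at 17.5 TPM in PP, 5.02 TPM in PH and 19.4 TPM in SC-β. PLAGL1 was close to OSR1 (0.20), a transcription factor of mesoderm that reached 30.9 TPM in SC-β, and RPL35AP31 (0.29). PEG10 was close to ZCCHC24 (0.20) and SNAI1 (0.21), the latter a transcription factor of epithelial to mesenchymal transition at 24.9 TPM in SC-β and 2.70 to 5.39 TPM elsewhere. CDKN1C was nearest to TNFRSF25 (0.19) and SCARNA10 (0.19), MEST to LINC00883 (0.23) and ATP11B (0.26), DLK1 to ADGRG6 (0.86) and RP11-384F7.2 (0.87), and NNAT to SCARNA21 (0.71) and TNFRSF19 (0.73). MEG3 and PEG3 did not reach 10 TPM and were not matched. Ranking by Pearson's r in place of distance kept 1 of the 2 names for IGF2 and 0 for the other 7 genes.

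For comparison, 46 other genes were listed from knowledge of human imprinting, and are called the other imprinted genes here. Whether each is imprinted in these cells was not tested. Of the 46, 42 have a row and 39 reached 1 TPM. Against hESCs, 12 of these 39 were higher and 3 lower in DE (background 22.5% and 4.43%), 9 and 3 in PGT (17.6% and 7.56%), 8 and 4 in PP (13.9% and 7.07%), 8 and 7 in PH (21% and 14.5%), and 13 and 4 in SC-β (38.6% and 6.44%), and their medians were 0.53, 0.41, 0.59, 0.37 and 0.74. With median-ratio scaling, the counts in DE became 6 and 6. In PH against PP, 1 was higher and 6 lower (background 8.94% and 9.97%), and in SC-β against PP, 6 were higher and 2 lower (background 18.5% and 1.63%). SNRPN was lower than hESCs in all 5 other stages, and PHLDA2 and INPP5F in 4 of them. In the Prader-Willi and Angelman region of chromosome 15q11.2-q13, SNRPN, which encodes a splicing protein, was at 550 TPM in hESCs, 208 TPM in DE, 190 TPM in PGT, 140 TPM in PP, 124 TPM in PH and 105 TPM in SC-β. The overlapping noncoding RNA SNHG14 was at 400 TPM in hESCs, 240 TPM in DE, 247 TPM in PGT, 150 TPM in PP, 120 TPM in PH and 186 TPM in SC-β, and UBE3A, a ubiquitin ligase gene for which SNHG14 is antisense, ranged between 51.6 TPM (hESCs) and 81.3 TPM (SC-β). GNAS, which encodes a G protein subunit, had the highest mean of the list over the 6 stages, at 336 to 743 TPM, although SNRPN and SNHG14 were above it in hESCs. INPP5F, a phosphatase gene, had 147 TPM in hESCs against 34.6 to 77.6 TPM in the other stages. MKRN3, a ring finger protein gene that was singled out after its values were seen, stood at 27.1 TPM in PH and at or under 0.813 TPM in the other 5 stages.

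**Figure D4:**
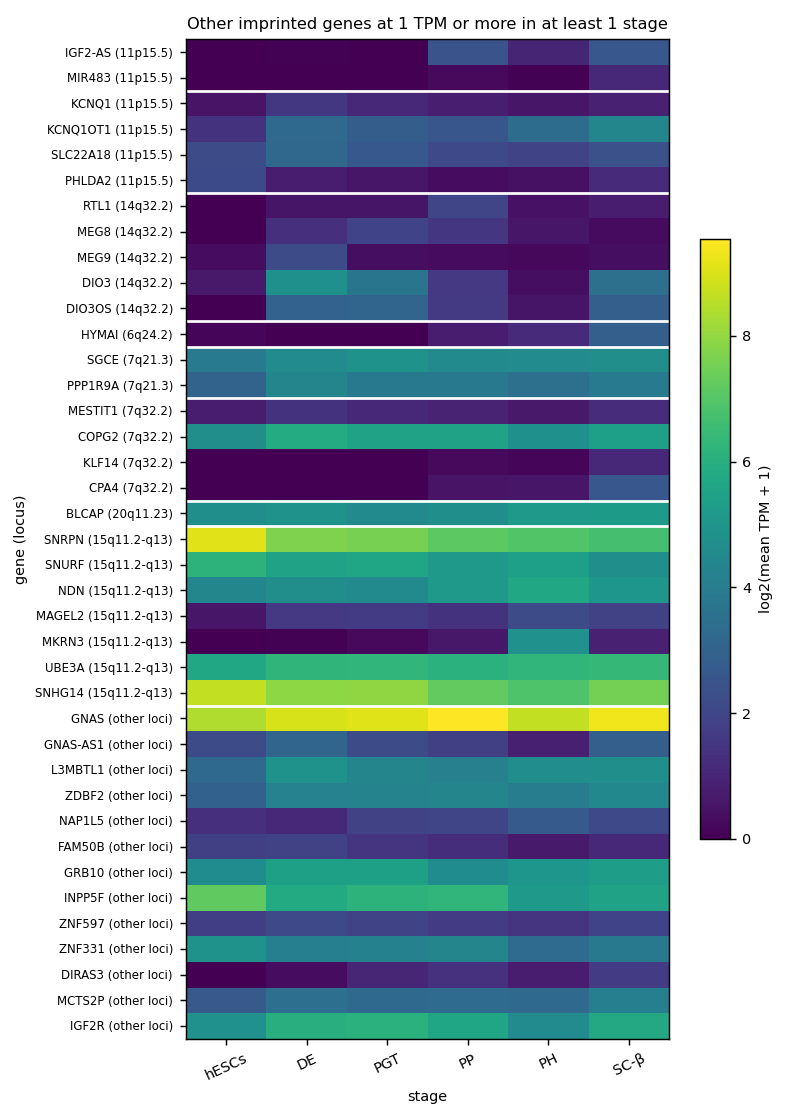
Level as log2(mean TPM + 1) (colour scale) of the 39 other imprinted genes at 1 TPM or more in at least 1 stage (rows, grouped by locus) at the 6 stages (columns). SNRPN and SNHG14 are brightest in hESCs (550 and 400 TPM), DIO3 in DE (26.5 TPM), and MKRN3 in PH (27.1 TPM).

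IGF2 acts through receptors and is held by binding proteins, so 15 genes of that pathway were described beside it, of which 14 reached 1 TPM. Of these 14, 9 were higher and 1 lower in SC-β against hESCs (background 38.6% and 6.44%), and 1 was higher and 2 lower in PH against hESCs (background 21% and 14.5%). The signalling receptor IGF1R was at 28.2 TPM in hESCs, 60.0 TPM in DE, 64.6 TPM in PGT, 36.6 TPM in PP, 26.7 TPM in PH and 94.9 TPM in SC-β. The insulin receptor INSR ranged from 14.2 to 23.6 TPM, and IGF2R, which clears IGF2 from the cell surface, from 23.2 TPM in PH to 67.1 TPM in PGT. Of the binding proteins, IGFBP3 was at 304 TPM in PGT, 61.3 TPM in SC-β and 2.75 to 19.1 TPM elsewhere, and IGFBP5 at 0.456 TPM in hESCs, 86.8 TPM in PH and 80.5 TPM in SC-β. Between hESCs and SC-β, IGFBP4 stood at 18.5 and 39.0 TPM, and IGFBP7 at 24.5 and 57.7 TPM. PAPPA, a protease that frees IGF from IGFBP4, was at 16.9 TPM in SC-β and 1.18 to 1.58 TPM elsewhere, and STC2, an inhibitor of PAPPA, at 18.3 TPM in hESCs and 8.20 TPM in SC-β. The signalling adaptor IRS1 was at 7.20 TPM in hESCs, 31.0 TPM in PGT and 16.9 TPM in SC-β.

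The genes that protect imprints in the embryo were described last. ZFP57, a zinc finger protein that binds methylated imprinting control regions, was at 0.606 TPM in hESCs, 0.294 TPM in DE, at most 0.0693 TPM in PGT and PP, and listed at 0 in PH and SC-β. ZNF445, the other zinc finger protein with this role, ranged between 8.99 TPM (hESCs) and 30.1 TPM (SC-β). Their cofactor TRIM28 ranged from 183 TPM in PH to 331 TPM in hESCs, and the histone methyltransferase SETDB1 from 28.2 TPM in hESCs to 66.8 TPM in PH. The maintenance methyltransferase DNMT1 stood between 47.7 and 92.1 TPM, its partner UHRF1 between 23.5 and 59.6 TPM, and CTCF between 35.7 and 52.8 TPM. The part of these genes in the levels of the imprinted genes was not tested.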

How the data were processed

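Total RNA was extracted from H9 hESCs and derived cells, and the labels list 2 libraries for each of 6 stages. The study's methods describe removal of ribosomal RNA, and the labels also name a TruSeq Stranded mRNA kit. The authors aligned reads to hg38 with HISAT2 (version 2.2.0), computed TPM per gene with StringTie (version 2.1.6) and deposited 1 mean TPM per gene and stage. The annotation is not given in the sources used here. TPM keeps no read counts, and only a minimum depth is stated for the replicates, so reads per gene, intervals and detection floors cannot be given.

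The 50451 entries were summed to 49085 names (231 names had more than 1 entry). Log2 ratios were computed with 1 TPM added to both stages, and 2-fold counted as higher or lower. No test was run, since the table holds 1 mean per stage. The members and lists were chosen with earlier results of these data known. Named genes were the 10 members, listed neighbours at 1 TPM or more, the 5 other imprinted genes of highest mean TPM, IGF receptors and pathway genes past 2-fold between hESCs and SC-β at 10 TPM or more in either, 7 imprint maintenance genes and the 2 names nearest each member in profile. Gene positions and overlaps came from GENCODE version 44 (GRCh38), microRNAs from RefSeq, and H19 upstream sequence from hg38.

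Alternatives were a pseudocount of 0.1 TPM, median-ratio scaling over the 13938 names at 1 TPM or more in every stage, totals without mitochondrial genes and the 100 most abundant names, the highest entry of a repeated name, a 4-fold threshold, other background filters and Pearson's r for profiles. The arithmetic was checked on simulated means of abundant names with known 4-fold changes and no noise, which gives no measure of error. Python 3.11.15, numpy 2.4.6, pandas 2.3.3 and matplotlib 3.10.9 were used.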

Additional observations from a re-analysis of the deposited data

How the results depend on the processing

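Another pseudocount cannot change the sign of a log2 ratio. Median-ratio shifts of -0.27 to 0.25 on the log2 scale are too small to reverse a ratio past 2-fold. Without mitochondrial genes and the 100 most abundant names, no log2 ratio past 2-fold of the 10 genes changed sign. For the locus pairs only the pseudocount and the entry of a repeated name were varied, so their signs were not put to a test. With a pseudocount of 0.1 TPM, the median log2 ratio of the 10 genes against hESCs became 1.46 in DE, 2.79 in PGT, 3.90 in PP, 3.57 in PH and 3.66 in SC-β. Without mitochondrial genes and the 100 most abundant names, it became 2.65 in PP and 3.33 in PH. With median-ratio scaling, DE against hESCs had 3 higher genes (H19 and CDKN1C fell under 2-fold) and 1 lower gene (MEST). PH against PP had 4 higher genes with median-ratio scaling and also without the most abundant names. SC-β against PP had 2 lower genes under a pseudocount of 0.1 TPM, under median-ratio scaling and without the most abundant names. With 4-fold as the threshold, the count of higher genes was 2 in DE, 5 in PP and 5 in SC-β against hESCs, 2 in PP against PGT and 0 in PH against PP, and the count of lower genes was 0 in PP against PGT and 2 in PH against PP. Leaving out genes listed at 0 in the reference stage, an alternative chosen after seeing the data, moved the median of PP against PGT to 1.38. Of the 39 other imprinted genes, median-ratio scaling gave 6 higher and 6 lower in DE, 5 higher in PGT and 7 lower in SC-β against hESCs, 1 lower in PGT against DE and 2 higher in PH against PP. A pseudocount of 0.1 TPM gave 15 higher in PP, 15 higher in PH and 7 lower in SC-β against hESCs, 3 higher in PGT against DE, 7 higher in PP against PGT, and 2 higher and 11 lower in PH against PP. It also moved the log2 ratio of MEG3 to DLK1 to -6.23 in PP, -4.70 in PH and -6.04 in SC-β, with MEG3 lower as before. The causes of these moves were not tested beyond what the settings themselves do. Each of the 10 genes has a single entry, so taking the highest entry of a repeated name could not move their values. No paired analysis was possible because the table holds 1 mean per stage and no replicate values, and no replicate could be left out for the same reason. Only a minimum depth of the libraries is stated and the reads behind a value are unknown, so a gene listed at 0 cannot be called absent.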
